A study of Homo sapiens with 6 samples.

Results

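The tRNA genes near 3.2 Mb on the short arm of chromosome 16 form a cluster of proline, lysine and arginine tRNA genes. Its members were taken by position, as the windows labelled tRNA that start from 3100000 to 3400000 on chromosome 16 of GRCh38. The rule gave 14 windows of 53603 in all, and 534 windows carry the tRNA label. The study asked how loss of La, an RNA-binding protein that SSB encodes, affects small RNA read at start sites in HEK293T, an established human embryonic kidney cell line. Control cells received 150 nM of a control siRNA and the other arm 150 nM of an siRNA against La, both for 48 hours with a lipid reagent, and each arm had 3 libraries. Both arms are the same line with no further alteration in the labels, and no mRNA marker of kidney epithelium was read in these libraries.

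Transfer RNAs carry amino acids to the ribosome and read codons with a 3-base anticodon. RNA polymerase III makes them from promoter elements inside the gene, box A and box B, and stops at a run of T on the coding strand, so that the new transcript ends in a run of U. La binds such U ends and is known to shield precursor tRNAs from trimming while their ends are processed. The proline genes here carry AGG or CGG or TGG as anticodon, the lysine genes carry CTT, and the arginine genes carry CCG or CCT.

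Each of the 14 windows held 1 tRNA gene of the RefSeq GRCh38.p14 table, of which 12 were listed as tRNA genes and 2 as pseudogenes. There were 8 proline, 4 lysine and 2 arginine genes. They lay between positions 3150674 and 3196225, a span of 45552 bases. RefSeq lists 17 tRNA entries in the interval. The other 3 (TRK-CTT8-1, TRK-CTT5-1 and TRP-TGG4-1) were not analysed here. In a symbol such as TRP-TGG3-5 the letters give the amino acid (P for proline) and the anticodon, the next number the family of genes with the same mature sequence, and the last number the copy. By the place of the gene in its window, 10 genes were read as lying on the plus strand and 4 on the minus strand. TRK-CTT3-1 lies in an exon of the lincRNA AC108134.2, and TRP-AGG2-7 in an intron of the lincRNA AJ003147.1. TRP-AGG2-8, TRK-CTT4-1, TRP-AGG1-1 and TRK-CTT14-1 lie in introns of the antisense RNA AJ003147.2 in GENCODE 29, and inside the RefSeq span of the olfactory receptor gene OR1F1. The other 8 overlap no GENCODE gene.

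Sequences of 2 member genes were at hand, and they are shown because they hold the features through which RNA polymerase III and La act. Each is the gene with the 25 bases that follow it, on the coding strand. Capitals mark the anticodon and every run of at least 4 T after the gene. TRK-CTT3-1 is at chr16:3157380-3157477 on the minus strand of GRCh38 (from a GENCODE 29 transcript). TRP-TGG3-5 is at chr16:3188094-3188190 on the plus strand of GRCh38.p14 (from RefSeq). TRP-TGG3-2, a gene of the same family at chr14:20684016-20684112 on the plus strand (GRCh38.p14, from RefSeq), is given for comparison.
TRK-CTT3-1: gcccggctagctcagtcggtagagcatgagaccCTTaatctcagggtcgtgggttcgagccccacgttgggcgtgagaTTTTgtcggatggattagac
TRP-TGG3-5: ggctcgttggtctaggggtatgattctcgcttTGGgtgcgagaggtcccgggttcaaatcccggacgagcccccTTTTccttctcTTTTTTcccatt
TRP-TGG3-2: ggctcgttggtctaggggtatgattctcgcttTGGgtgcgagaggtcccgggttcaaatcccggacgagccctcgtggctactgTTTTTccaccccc

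The TRP-TGG3-5 and TRP-TGG3-2 genes were identical over all 72 bases, while 9 of the 25 bases after the gene matched. The first run of T began at base 6 after the gene in TRK-CTT3-1, at base 3 in TRP-TGG3-5 and at base 13 in TRP-TGG3-2. All 3 genes held the box B core GTTCNANNC. On either strand, that form occurred in 2.48% of 35116 RefSeq promoter windows cut to 97 bases, and TTTT in 48.0% of them. The TRP-TGG3-5 gene ends 39 bases before the RefSeq start of OR1F1, so its window holds that start site too. A match describes letters in a window and shows no site in use.

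Total counts over all windows ran from 3261883 to 4105806 in the control libraries and from 3066299 to 3411114 in the La knockdown libraries. The SSB window with the most reads had 4, 3 and 3 counts in control libraries 1 to 3, against 1, 0 and 0 in La knockdown libraries 1 to 3. The other SSB window had 0, 0 and 1 counts in the control libraries against 0, 2 and 0 in the La knockdown libraries. Such promoter reads do not measure the SSB mRNA. La knockdown replicate 3 had the highest CPM (a count relative to library size, scaled with TMM factors) of its arm in 12 of 12 tested windows. The margin was small in some, as in TRP-TGG3-4 at 70.6 CPM against 66.7 CPM in La knockdown replicate 1. How often this held over all windows was not counted. The tRNA windows of La knockdown replicate 3 took 13.3% of all counts, against 11.1% and 10.2% in La knockdown replicates 1 and 2 and at least 15.3% in each control library. The part of this library was examined by leaving it out for the cluster's calls, median and share of counts, and for 9 of its windows. It was not examined for the medians of other tRNA genes or of other RNA polymerase III genes. Ratios between windows and the make-up of the cluster's counts were not recomputed without it either.

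Fewer counts fell in the cluster after La knockdown, and 1 gene of it, TRP-TGG3-3, passed the test. The 14 windows together held 4533, 3240 and 4198 counts in control libraries 1 to 3, against 1797, 1797 and 2626 in La knockdown libraries 1 to 3. That was 0.110% ± 0.0106 of all counts with control siRNA and 0.0648% ± 0.0162 with La siRNA (SD, n = 3), and the ranges of the arms did not overlap. Windows of rRNA took 39.4% ± 4.89 of all counts with control siRNA and 47.3% ± 6.97 with La siRNA (SD, n = 3). Of the counts outside rRNA windows the cluster made up 0.183% ± 0.0280 and 0.122% ± 0.0160 (SD, n = 3), again without overlap. Within the tRNA counts alone the cluster made up 0.704% ± 0.0523 and 0.557% ± 0.0610 (SD, n = 3), and again no La knockdown library reached a control library. TRP-TGG3-3 alone held 27.5% ± 4.17 of the cluster's counts with control siRNA and 17.2% ± 1.29 with La siRNA (SD, n = 3). The cluster's shares thus depend in part on that 1 window, and they were not computed without it. That the arms did not overlap is therefore shown only for the cluster with TRP-TGG3-3, and not for its other windows. This holds above all within the tRNA counts, where the arms lay closest. In bulk libraries fewer cells with an RNA and less of it per cell cannot be told apart.

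Of the 14 windows, 12 had enough reads to be tested in the edgeR quasi-likelihood fit over all 1064 windows that passed the filter on low counts. At an adjusted p under 0.05, 1 of the 12 was lower and 0 were higher. In the background of all tested windows 4.79% were lower and 0.658% higher, so a count of 1 in 12 lies close to the background. At an unadjusted p under 0.05 the cluster had 3 lower windows (TRP-TGG3-3, TRK-CTT2-5 and TRR-CCT3-1) and 0 in the other direction, against 14.2% of all tested windows lower. The other tRNA windows had 114 of 434 lower by that measure. Without La knockdown replicate 3 the cluster had 9 of 12 lower at an unadjusted p under 0.05, against 248 of all 1139 windows tested in that edgeR fit. DESeq2, an alternative count test, also called 1 lower and 0 higher, against 7.14% of all windows lower. At an unadjusted p under 0.05 it had 3 lower and 0 higher in the cluster, against 13.4% of all windows lower. The fitted log2 fold change (La knockdown against control) was negative in all 12, except that TRP-AGG2-7 and TRP-AGG1-1 were positive with upper quartile factors and TRP-AGG1-1 without control replicate 1. It was negative in 566 of all 1064 tested windows and in 357 of the 434 other tRNA windows. Among the other proline, lysine and arginine tRNA windows it was negative in 56 of 56. The median of the cluster was -0.37, against -0.05 over all tested windows, and it was -0.69 against -0.08 without La knockdown replicate 3. CPM ranges of the arms did not overlap, with La knockdown lower, for 5 of the 12, against 17.9% of all tested windows. The 5 were TRP-TGG3-3, TRP-TGG3-4, TRP-TGG3-5, TRR-CCT3-1 and TRK-CTT2-5. Among the other tRNA windows 34.3% were lower without overlap, and 44.6% among those of proline, lysine and arginine genes, so the cluster did not stand out by this measure.

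**Figure D1:**
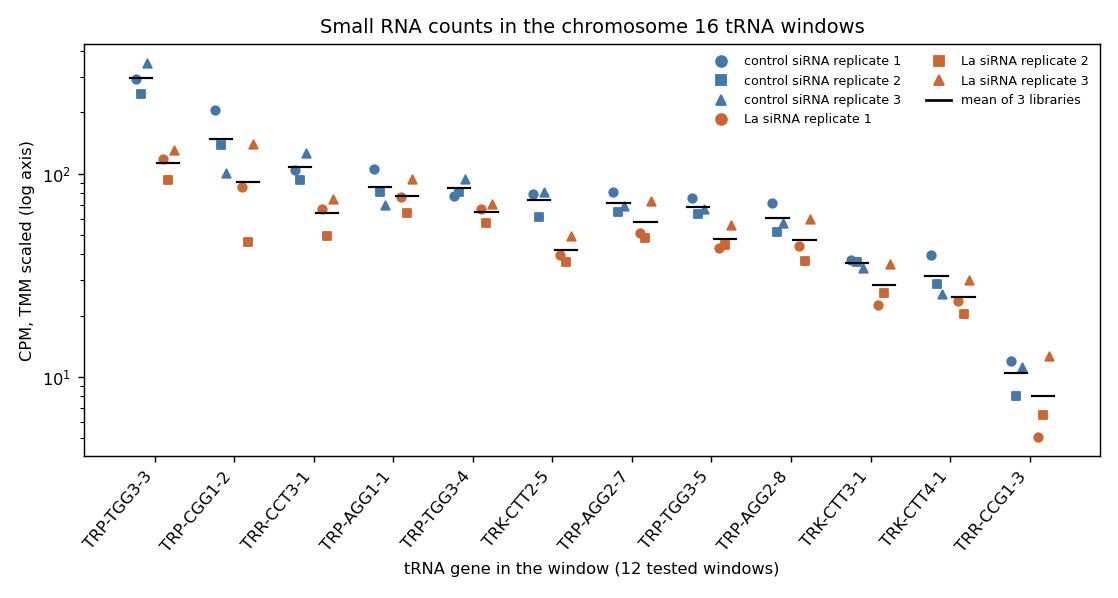
CPM scaled with TMM factors (log axis) for the 12 tested windows, ordered by their mean in the control arm, with 1 point per library and a bar at the mean of 3 libraries. TRP-TGG3-3 is the highest window in the control arm and its 3 La knockdown libraries lie well below its 3 control libraries, while the ranges of 7 windows overlap.

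Proline tRNA genes with the anticodon TGG, which reads the codon CCA, gave the largest count and the single call. TRP-TGG3-3 (window at positions 3158772 to 3159171, gene at 3158922 to 3158993) had 1117, 832 and 1357 counts with control siRNA against 328, 314 and 413 with La siRNA. All 3 La knockdown libraries were below all 3 control libraries. Its level was 296 ± 53.0 CPM with control siRNA and 113 ± 19.1 CPM with La siRNA (SD, n = 3). It fell by 1.39 on the log2 scale (SE 0.26, edgeR adjusted p = 0.0156), to a level 2.61-fold lower. Over 12 alternative fits its log2 fold change ran from -1.62 to -1.07 and its adjusted p from 3.49e-05 to 0.121. The call was lost in 1 of these, the edgeR fit without La knockdown replicate 1 (log2 fold change -1.43, adjusted p = 0.121). That edgeR fit called 0 windows of the whole table, while at an unadjusted p under 0.05 it had 103 with a fall and 72 with a rise.

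TRP-TGG3-4 and TRP-TGG3-5, of the same family and thus named for the same mature sequence, had lower counts and smaller differences. TRP-TGG3-4 (gene at 3184133 to 3184204) had 298, 276 and 363 counts with control siRNA against 186, 194 and 224 with La siRNA. Its CPM ranges did not overlap, and its log2 fold change was -0.38 (SE 0.23, edgeR adjusted p = 0.298). TRP-TGG3-5, described here because its sequence is shown, had 289, 215 and 257 counts with control siRNA against 120, 151 and 177 with La siRNA. Its 3 La knockdown values were again the lowest, with a fitted log2 change of -0.52 (SE 0.24, adjusted p = 0.221 in edgeR). Neither passed the test.

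The ratio of 2 windows within a library does not depend on how libraries are scaled. TRP-TGG3-3 had 3.75, 3.01 and 3.74 times the counts of TRP-TGG3-4 in control libraries 1 to 3, against 1.76, 1.62 and 1.84 times in La knockdown libraries 1 to 3. Relative to TRP-TGG3-5 it had 4.34 ± 0.816 times with control siRNA and 2.38 ± 0.330 times with La siRNA (SD, n = 3). Relative to TRP-TGG3-2 on chromosome 14 the arms overlapped, at 0.532 ± 0.142 with control siRNA and 0.354 ± 0.0877 with La siRNA (SD, n = 3). The ratio of TRP-TGG3-4 to TRP-TGG3-5 was 1.24 ± 0.194 with control siRNA and 1.37 ± 0.159 with La siRNA (SD, n = 3), a difference within the spread. These pairs were set side by side after their values had been seen, so their difference in response is a description and was not tested. Reads of the mature part can match every copy of the family, and how they were assigned is not given in the sources used here, so the value of a single copy is uncertain.

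Proline tRNA genes with other anticodons were not called. TRP-CGG1-2, whose anticodon reads CCG, had 790, 469 and 387 counts with control siRNA against 240, 156 and 443 with La siRNA. La knockdown replicate 3 lay among the control libraries, and its arms had coefficients of variation of 36.1% and 51.9%, the widest of the tested windows. The log2 fold change was -0.71 (SE 0.40, edgeR adjusted p = 0.272). It was -1.24 without La knockdown replicate 3, and -0.41 without La knockdown replicate 2 or without control replicate 1.

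The first base of the AGG anticodon is modified to inosine in the mature tRNA, and the codons it reads include CCU and CCC. TRP-AGG1-1 (gene at 3191989 to 3192060) had 404, 274 and 270 counts with control siRNA against 214, 216 and 297 with La siRNA. The arms overlapped, at 85.5 ± 18.2 and 78.0 ± 15.0 CPM (SD, n = 3), and the log2 fold change was -0.13 (SE 0.26, edgeR adjusted p = 0.742). It was the value nearest to 0 of the 12, and it was 0.04 without control replicate 1, -0.02 without La knockdown replicate 2 and -0.36 without La knockdown replicate 3. TRP-AGG2-7 had 310, 220 and 266 counts with control siRNA against 143, 164 and 234 with La siRNA. The CPM of La knockdown replicate 3 again lay among the control values, and the log2 fold change was -0.31 (SE 0.26, edgeR adjusted p = 0.423), or -0.60 without that library. TRP-AGG2-8, of the same family, had a fitted log2 change of -0.36 (adjusted p = 0.400 in edgeR).

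Lysine tRNA genes of the cluster all carry CTT, which reads AAG. TRK-CTT2-5 (gene at 3175691 to 3175763) had 304, 207 and 312 counts with control siRNA against 111, 125 and 156 with La siRNA. The arms did not overlap, at 73.8 ± 10.9 and 41.9 ± 6.43 CPM (SD, n = 3). Its log2 fold change was -0.82 (SE 0.25), with an edgeR adjusted p of 0.0969 over all libraries and of 0.0454 without La knockdown replicate 3 (log2 fold change -1.02). TRK-CTT3-1, whose sequence is given above, had 144, 124 and 133 counts with control siRNA against 63, 88 and 114 with La siRNA. Its control libraries were the most alike of any tested window (coefficient of variation 4.41%), and the arms overlapped through La knockdown replicate 3, at 35.9 CPM. The log2 fold change was -0.36 (SE 0.28, edgeR adjusted p = 0.395), and it was -0.65 without La knockdown replicate 3. TRK-CTT4-1 had a fitted log2 change of -0.34 (adjusted p = 0.441 in edgeR).

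The 2 arginine genes differed in level. TRR-CCT3-1 (gene at 3152900 to 3152972), which reads AGG codons, had 398, 316 and 487 counts with control siRNA against 187, 168 and 238 with La siRNA. Every La knockdown library was lower, at 108 ± 16.8 against 63.8 ± 13.0 CPM (SD, n = 3). The fitted log2 change of -0.76 (SE 0.26) did not pass the test (edgeR adjusted p = 0.121). TRR-CCG1-3, which reads CGG codons, had 46, 27 and 43 counts with control siRNA against 14, 22 and 40 with La siRNA. It was the least read of the tested windows, its arms overlapped, and its log2 fold change was -0.37 (SE 0.40, edgeR adjusted p = 0.540). That value was -0.92 without La knockdown replicate 3 and -0.15 without La knockdown replicate 1.

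The windows of the 2 pseudogenes had too few reads to be tested. TRP-AGG6-1 had 3, 8 and 5 counts with control siRNA against 1, 3 and 3 with La siRNA. Its window shares 78 bases with that of TRR-CCT3-1, and the shared stretch ends 71 bases before the TRR-CCT3-1 gene. TRK-CTT14-1 had 2, 1 and 0 counts with control siRNA against 1, 1 and 2 with La siRNA. The 0 in control replicate 3 allows up to 0.861 CPM (unscaled) at this depth, for counting error only.

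**Figure D2:**
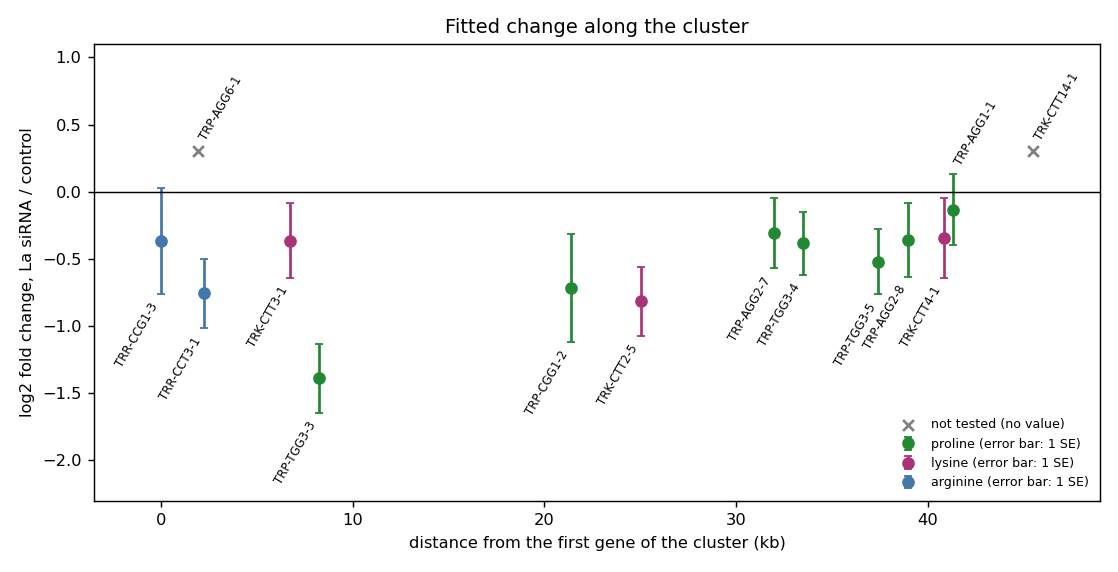
Fitted log2 fold change of the 12 tested windows (error bar, 1 SE) against the distance of the gene from the first gene of the cluster in kb, with colours for the amino acid and crosses at an arbitrary height for the 2 windows that were not tested. TRP-TGG3-3 has the lowest value at -1.39, and the other 11 lie from -0.82 to -0.13.

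Levels in the control arm spanned a 28.6-fold range over the tested windows, all of which are 400 bp long around genes of 72 or 73 bases. TRP-TGG3-3 came first, with control libraries above those of TRP-CGG1-2 (148 ± 53.6 CPM, SD, n = 3). From TRP-CGG1-2 down to TRP-AGG2-8 (60.2 ± 10.7 CPM), through TRR-CCT3-1, TRP-AGG1-1, TRP-TGG3-4, TRK-CTT2-5, TRP-AGG2-7 and TRP-TGG3-5, each gene overlapped the next in the order. TRK-CTT3-1 (36.2 ± 1.60 CPM) and TRK-CTT4-1 (31.3 ± 7.48 CPM) overlapped each other and lay below that run. TRR-CCG1-3 (10.4 ± 2.12 CPM), TRP-AGG6-1 and TRK-CTT14-1 followed, each below the one before it in all 3 control libraries.

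The make-up of the cluster's counts changed with the arm for some members. TRP-TGG3-3 took 24.6%, 25.7% and 32.3% of them in control libraries 1 to 3, against 18.3%, 17.5% and 15.7% in La knockdown libraries 1 to 3. TRP-AGG1-1 took 7.93% ± 1.32 with control siRNA and 11.7% ± 0.382 with La siRNA (SD, n = 3). A lower share of 1 member raises the shares of the others by arithmetic. The share was lower without overlap for 1 tested member, TRP-TGG3-3, and higher without overlap for 5, namely TRP-AGG1-1, TRP-AGG2-7, TRP-AGG2-8, TRP-TGG3-5 and TRK-CTT4-1. No test was made of these shares.

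**Figure D3:**
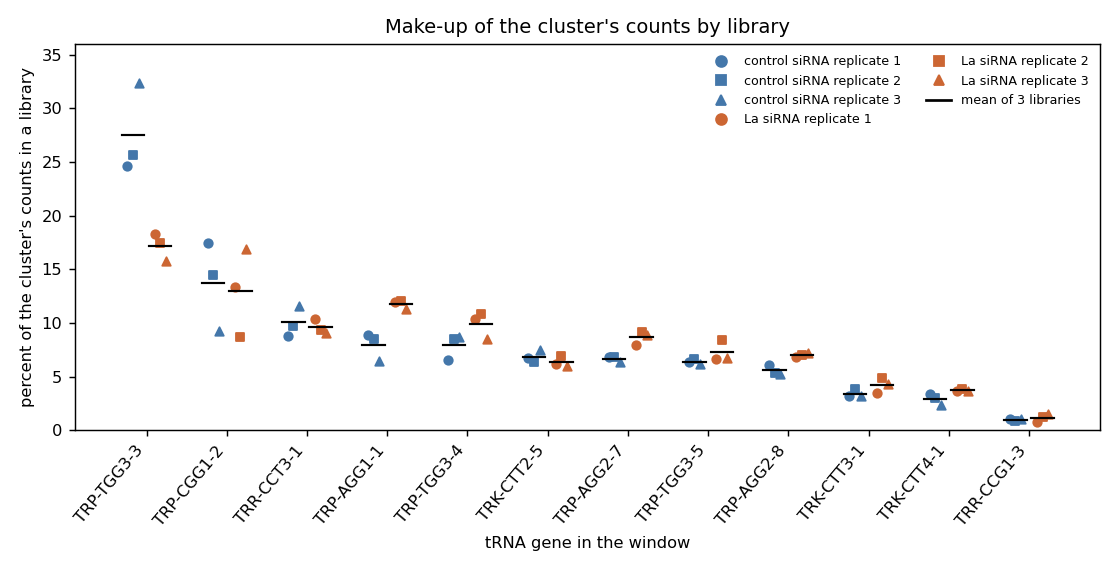
Percent of the cluster's counts in each library (linear axis from 0) that fell in each of the 12 tested windows, with 1 point per library and a bar at the mean of 3 libraries. The TRP-TGG3-3 points lie from 24.6% to 32.3% in the control arm and from 15.7% to 18.3% in the La knockdown arm.

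Copies of the same families elsewhere in the genome gave a comparison with genes named for the same mature sequence. Of the 11 families in the cluster, 5 had copies elsewhere, in 16 tested windows when windows of 1 gene with identical counts were counted once. All 16 had a negative log2 fold change, except 5 with upper quartile factors and TRP-CGG1-3 without control replicate 1, and their median was -0.50. With TMM factors, so did 56 of 56 tested windows of proline, lysine and arginine tRNA genes outside the cluster. The single copy called lower was TRP-TGG3-1 on chromosome 5, which had 2961, 1833 and 2205 counts with control siRNA against 570, 558 and 950 with La siRNA (log2 fold change -1.50, SE 0.29, edgeR adjusted p = 0.0156). The La knockdown libraries of TRP-TGG3-1 were all below its control libraries. TRP-TGG3-2 on chromosome 14, the gene printed above for comparison, had 2630, 1744 and 1958 counts with control siRNA against 963, 701 and 1507 with La siRNA. It was not called (log2 fold change -0.74, SE 0.31, edgeR adjusted p = 0.186). The 6 copies of the TRP-AGG2 family elsewhere had log2 fold changes from -0.53 to -0.28, near the -0.36 and -0.31 of the 2 members of the cluster. The 4 TRK-CTT2 copies elsewhere had values from -0.61 to -0.31, against -0.82 for TRK-CTT2-5, and the difference was not tested.

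**Figure D4:**
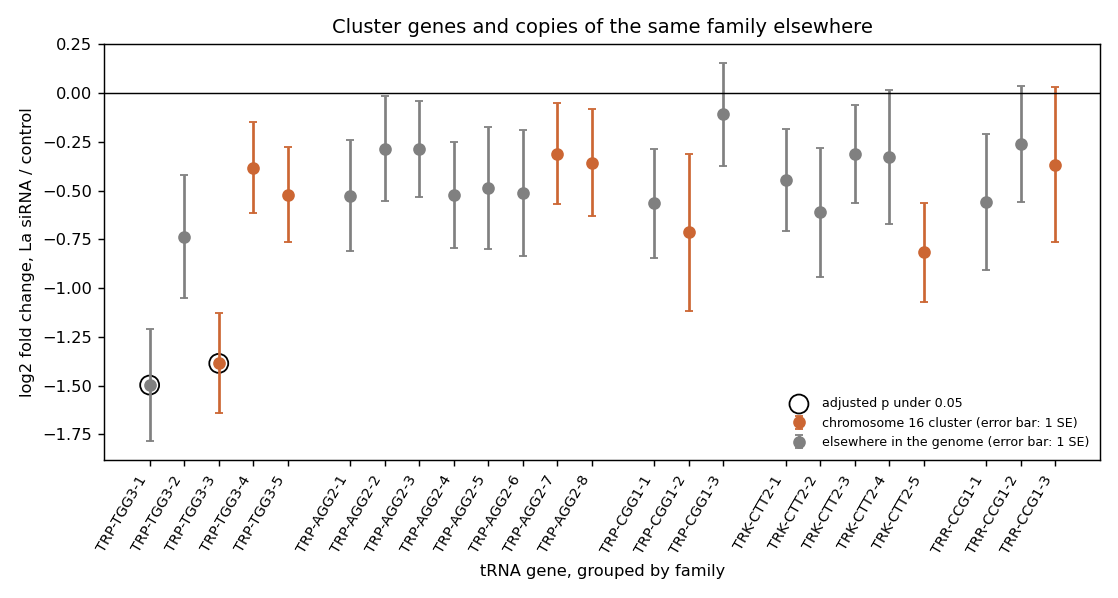
Fitted log2 fold change (error bar, 1 SE) for tested windows of the 5 families with copies both in the chromosome 16 cluster (orange) and elsewhere (grey), with a ring where the adjusted p is under 0.05. The ringed genes are TRP-TGG3-1 at -1.50 and TRP-TGG3-3 at -1.39, and the other genes of the TRP-TGG3 family lie from -0.74 to -0.38.

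Against the other tRNA windows the cluster did not stand out by its median over all 6 libraries. The 434 other tested tRNA windows had a median fitted change of -0.42 on the log2 scale, with 30 lower and 0 higher (6.91% lower). Among them, the 56 windows of proline, lysine and arginine genes had a median of -0.59, with 13 lower and 0 higher. For lysine alone 7 of 19 such windows elsewhere were lower, with a median of -1.03, while 0 of the 3 in the cluster were called, with a median of -0.36. At an unadjusted p under 0.05 in edgeR, 1 of these 3 was lower, beside 10 of the 19 elsewhere. The lists elsewhere were taken by amino acid with any anticodon, while the lysine genes of the cluster all carry CTT. The 2 lysine sets are thus not alike. The 4 TRK-CTT2 copies elsewhere had log2 fold changes from -0.61 to -0.31, and 0 of them were called. For proline 3 of 14 elsewhere were lower (median -0.52) beside 1 of 7 in the cluster (median -0.38). For arginine 3 of 23 elsewhere were lower (median -0.61) beside 0 of 2 in the cluster (median -0.56). At an unadjusted p under 0.05 in edgeR, 1 of these 2 was lower, beside 10 of the 23 elsewhere. The differences between these groups were not tested, and the comparison was not repeated without La knockdown replicate 3.

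Genes of RNA polymerase III other than tRNA genes served as a second comparison. In 21 tested windows of 17 genes the median log2 fold change was 0.04, and 2 windows were lower and 0 higher. Both were vault RNA genes, VTRNA1-1 (-1.86) and VTRNA1-2 (-2.20). Without the vault RNA genes, the 18 windows of 14 genes (7SK, 7SL, RNase P and RNase MRP RNA, Y RNA and U6) had log2 fold changes from -0.49 to 0.52, and 0 were called (0 also at an unadjusted p under 0.05). That range holds 7 of the 12 values of the cluster and not that of TRP-TGG3-3. The vault RNA genes were set aside with their values known, so this placing of TRP-TGG3-3 is no test. Over all 21 windows the range was -2.20 to 0.52, which holds all 12 values of the cluster.

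Of the counts in windows of this interval, nearly all fell in the windows of the cluster. Reads outside the windows were not seen here. The 21 windows of other classes there, at protein-coding and lncRNA start sites, had from 3 to 9 counts per library in all, and none had enough reads to be tested. At an adjusted p under 0.05, the authors' deposited table has 1 member lower and 0 higher, against 0.149% of all windows lower there. That member was TRP-TGG3-3, at -1.64 on the log2 scale (adjusted p 0.000225) in the authors' deposited table. The 0.149% is taken over all 53603 windows, most of them too little read to be tested here. It is thus not comparable with the 4.79% lower among the 1064 windows tested here.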

How the data were processed

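Small RNA libraries were made after phosphatase and polynucleotide kinase treatment, per the labels' protocols. Raw counts per 400 bp window were deposited by the authors. Windows ran from 150 bp before to 250 bp after a start site. Trim Galore, Bowtie2, bedtools and edgeR, with GRCh38, are named in the submitters' processing notes. Whether strand was used, and how reads matching more than 1 place were counted, is not given in the sources used here. The authors' deposited table holds log2 fold changes and log2 CPM, an F score, p-values and adjusted p-values. In it, only log2 fold changes and adjusted p-values were used.

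Windows took a RefSeq GRCh38.p14 tRNA symbol where at least 20 bases overlapped (401 of 534 tRNA windows). The test was edgeR 4.0.16 under R 4.3.3 (filterByExpr defaults, TMM factors, quasi-likelihood test with the arm as single term, all 6 libraries, Benjamini-Hochberg adjustment over 1064 windows). Standard errors came from the log2 fold change and F. The fit was tested on simulated data. The labels do not say that the libraries of an arm came from separate cultures, so p-values measure only the spread between these libraries, which may be technical. Alternatives were RLE or upper quartile factors, library size alone, DESeq2 1.42.0, no filter, identical windows collapsed, a replicate block and each library left out. Full values went to members called at an adjusted p under 0.05 and to the 2 with the highest mean count per anticodon, and SSB was always named. The members and lists were chosen with earlier results of these data known. Shares, ratios and medians over members were given no test. The members' mean counts per library ran from 32.0 to 727 over tested windows. Figures were drawn with matplotlib 3.10.9.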

Additional observations from a re-analysis of the deposited data

How the results depend on the processing

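The count of cluster windows higher in La knockdown stayed at 0 over 13 alternatives. The count lower stayed at 1, TRP-TGG3-3, in 11 of 13. Over the fits that left out 1 library it ranged from 0 (without La knockdown replicate 1, where 3 were lower at an unadjusted p under 0.05) to 2 (without La knockdown replicate 3, where TRK-CTT2-5 was added, 9 were lower at an unadjusted p under 0.05, and 98 of all 1139 windows were called lower). The cluster median of -0.37 became -0.058 with upper quartile factors, which moved the median of all windows by 0.32. Relative to that median the cluster lay at -0.32 with TMM factors and with each of the 4 other scalings, DESeq2 included. Scale factors move all windows by nearly the same amount, so this distance could hardly change and is no check on the result. It did change when a library was left out, from -0.60 to -0.26. The median of the cluster itself then ran from -0.69 (without La knockdown replicate 3) to -0.32. Without a filter it was -0.61, with 14 windows tested. The difference in the cluster's share of counts, -0.0453 percentage points, was -0.147 as a share of tRNA counts, a smaller denominator, and ran from -0.0544 to -0.0392 with a library left out.

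Of 108 refits of the 9 named windows, 103 kept direction and side of the threshold, 1 was weaker and 1 stronger (both given above), and 3 reversed. TRP-AGG2-7 became 0.0096 and TRP-AGG1-1 0.19 with upper quartile factors, and over the fits without 1 library TRP-AGG1-1 ran from -0.36 (without La knockdown replicate 3) to 0.044 (without control replicate 1). The cause of the last was not tested. A replicate block gave 1 lower and 0 higher cluster windows, against 8.27% lower over all windows, with a median of -0.41 and an adjusted p of 0.000992 for TRP-TGG3-3. Between libraries with the same number, the correlations of their deviations from the arm means were 0.14, 0.23 and -0.46. These 3 values differ in sign and cannot decide whether equal numbers mark a pairing. The simulated log2 change was 2 in size, larger than the change of any tested member. How many changes of the members' size this depth would show was therefore not tested.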
